A study of Mus musculus with 4 samples.

Results

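A list of 50 genes of G2 and mitosis, chosen by name, was followed through single-cell RNA-seq of the embryonic mouse neocortex. All 50 were found among the 32285 genes counted in each library. By role the list held cyclin B and Cdk1 with its regulators, mitotic kinases and the spindle checkpoint, activators of the anaphase-promoting complex, the chromosomal passenger complex, centromere and kinetochore proteins, spindle proteins and kinesins, chromosome structure, and cytokinesis. Another 11 members, among them Ctcf, Hmgb2 and Tubb4b, are also known outside G2 and mitosis and are called the broadly expressed members below.

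The libraries came from the rostral neocortex at E15.5, embryonic day in mice. The 2 i4F-Nes libraries had the genotype Nestin-Cre;i4F;ROSA-STOP-rtTA, and the 2 littermate CTR libraries had the genotype i4F;ROSA-STOP-rtTA, without the Cre. i4F is an inducible cassette of the Yamanaka factors Oct4, Sox2, Klf4 and c-Myc in a Tet-ON system, and rtTA, the activator it needs, is read only after Cre has removed a stop sequence. Nestin-Cre acts in neural progenitors, so that their progeny carry the recombined allele too. Doxycycline at 0.2 mg/ml was in the drinking water of the dams of both groups for 4 days, with E10.5 the first and E14.5 the last, and the tissue was taken a day later. The labels do not say how many embryos a library held, and the p-values below measure only the spread between these libraries. The label of the samples calls the cells cortical neurons, but the libraries held progenitors as well.

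Entry into mitosis is driven by Cdk1 bound to cyclin B, and most of the genes needed to condense, attach and separate chromosomes are transcribed shortly before. Their transcription is repressed in resting cells by a complex that binds a promoter element called the cell cycle genes homology region, or CHR, and it often also needs CCAAT boxes, which bind NF-Y. In the embryonic cortex radial glia divide at the ventricular surface, intermediate progenitors divide mostly away from it, and neurons have left the cell cycle.

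Promoters are shown for 4 members whose values recur below and that hold both elements, and for Birc5, which held neither although it set high-score radial glia apart as sharply (described below). The 150 bases before the RefSeq start are given 5′ to 3′ on the strand of the gene (GRCm38.p6), with CHR letters (TTTGAA or TTCGAA) and CCAAT in capitals on either strand, so that TTCAAA and ATTGG are the reverse forms.
Top2a (chr11:99024190-99024339, minus strand): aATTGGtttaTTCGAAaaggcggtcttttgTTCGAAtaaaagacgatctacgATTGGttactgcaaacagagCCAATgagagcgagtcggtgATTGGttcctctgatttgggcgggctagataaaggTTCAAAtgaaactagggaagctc
Mki67 (chr7:135716380-135716529, minus strand): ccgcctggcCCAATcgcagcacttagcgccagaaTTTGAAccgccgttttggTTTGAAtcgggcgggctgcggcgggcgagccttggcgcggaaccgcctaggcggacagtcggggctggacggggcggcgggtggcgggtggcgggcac
Cdk1 (chr10:69352913-69353062, minus strand): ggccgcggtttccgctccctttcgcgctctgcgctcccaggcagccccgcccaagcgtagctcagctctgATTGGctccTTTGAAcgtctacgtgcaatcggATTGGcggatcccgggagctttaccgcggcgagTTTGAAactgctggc
Cdc20 (chr4:118437344-118437493, minus strand): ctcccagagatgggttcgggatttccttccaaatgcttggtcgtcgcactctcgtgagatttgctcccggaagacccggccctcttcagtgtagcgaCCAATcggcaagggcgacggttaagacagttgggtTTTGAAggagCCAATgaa
Birc5 (chr11:117849087-117849236, plus strand): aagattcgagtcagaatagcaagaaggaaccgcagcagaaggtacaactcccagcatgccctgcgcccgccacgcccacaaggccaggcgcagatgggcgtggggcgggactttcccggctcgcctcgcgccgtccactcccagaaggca

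RefSeq promoters of 300 bases, 250 before the start and 50 after it, were at hand for 44 of the 50 members. CHR letters were in 34 of them (77.3%), against 19.4% of 27025 promoters, the first of each gene. CCAAT was in 33 (75%) against 37.9%, at least 2 CCAAT were in 28 (63.6%) against 12.2%, and both elements were in 28 (63.6%) against 7.70%. The letters were as frequent among the broadly expressed members (CHR in 8 of 10) as among the others (26 of 34). These are matches of letters, not sites shown to be bound. They rest on the RefSeq starts, and for 29 of the 44 members the bases just after the start were found in a GENCODE transcript of the gene. The 28 members with both elements and the 16 with 1 or neither had medians, in the readouts described below, of 23.0 and 22.0 for the ratio of level between high-score and other radial glia, of -6.00 and -5.85 for the log2 fold change from radial glia to neurons, and of -0.50 and -0.29 for that from radial glia to reprogrammed progenitor cells. The 50 genes lie on 18 chromosomes, with 8 of them on chromosome 2, and all matched GENCODE by gene ID and symbol.

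After filters and removal of doublets, the 4 libraries held 6046 to 7498 cells and 78346750 to 128584415 UMIs, the counted RNA molecules. Cells had a median of 15162 UMIs in replicate 1 of i4F-Nes and 15132.5 in replicate 1 of CTR, and of 11320 and 11620.5 in their replicates 2, so that depth went with the replicate number and not with the group. Pairs of libraries shared 20 to 31 cell barcodes. No cell annotation was at hand, so cells were gated by how many of fixed marker genes, none of them on the list, had a UMI, and the gates' minimums were set after seeing the marker counts. Radial glia-like cells had a median of 8 of 12 markers such as Pax6 and Slc1a3, intermediate progenitor-like cells 5 of 8 such as Eomes and Neurog2, and neuron-like cells 8 of 12 such as Neurod2 and Mapt. They are called radial glia, intermediate progenitors and neurons below. The gates took 1892, 2519 and 14536 cells, and the median number of markers of microglia, endothelial, mural, meningeal and erythroid cells was 0 in each. Intermediate progenitors also had a median of 3 of the 12 neuron markers, and their gate allowed up to 5, so that it can hold cells on the way to neurons.

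A pair of further gates found cells almost only in i4F-Nes. Reprogrammed progenitor cells had a median of 7 of 12 markers, among them Epcam, Nanog, Anxa1 and Lgals7, together with 3 of the 12 radial glia markers. They numbered 432 and 393 in i4F-Nes replicates 1 and 2, 3 in CTR replicate 1 and 0 in CTR replicate 2. Neuron-like cells with Krt8 and Ebf genes had 6 of 10 of their own markers and 6 of 12 neuron markers, and numbered 224 and 249 in i4F-Nes and 0 in both CTR libraries. Both marker lists came from earlier results on these libraries. Median UMIs were 36044 and 26278 in reprogrammed progenitor cells against 15808 and 15322 in radial glia of the same libraries, so scores per cell were taken at an equal depth of 3800 UMIs, which left out 221, 269, 1357 and 765 shallower cells (i4F-Nes and CTR replicate 1, then i4F-Nes and CTR replicate 2; values in this order are used below).

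The score of a cell was the number of its 3800 thinned UMIs that came from the 50 genes, and a score of at least 10 was called high. It divided the classes along their known place in the cell cycle. In radial glia 76.2%, 80.3%, 79.8% and 79.3% of cells were high, with median scores of 29, 29, 30 and 31.5. In intermediate progenitors 19.8%, 16.7%, 32.3% and 22.0% were high, with medians of 5 or 6. In neurons 0.596%, 0.627%, 0.669% and 0.674% were high, with a median of 3 in every library. Most of those neurons stood near the limit, since at a minimum of 20 only 0.0812% of i4F-Nes and 0.162% of CTR neurons remained. The score is continuous and the limit cuts a range: 5.23% to 7.0% of radial glia stood at 9 or 10. Cells with markers of both radial glia and intermediate progenitors lay between the classes, at 37.8%, 38.6%, 45.5% and 37.8% high.

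**Figure D1:**
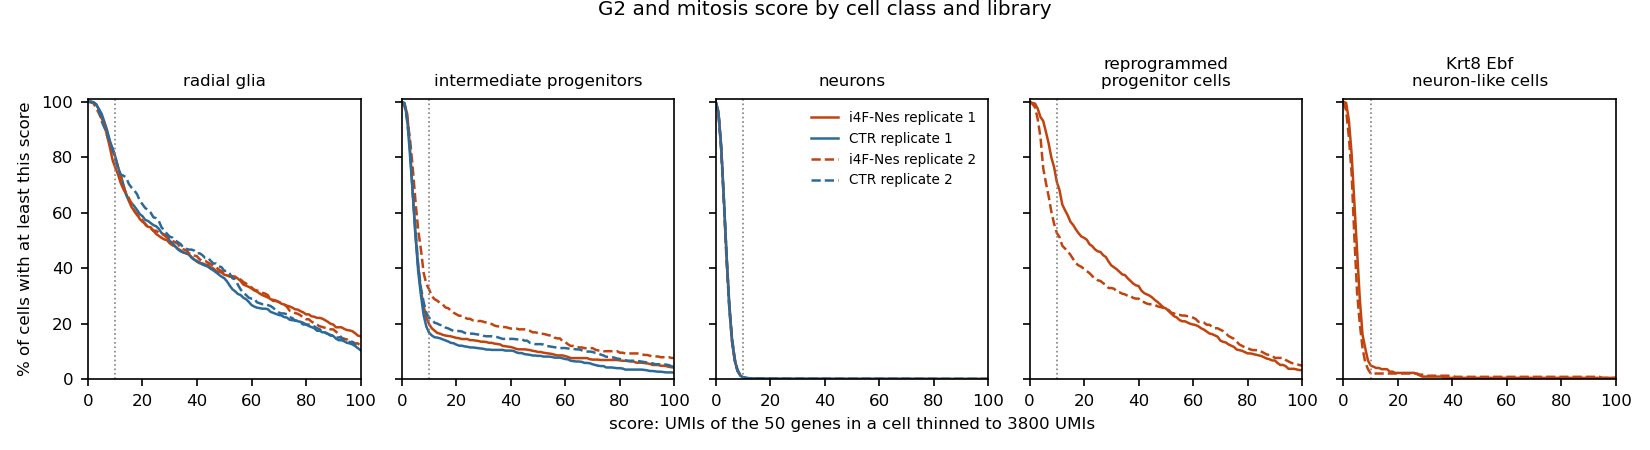
Percent of cells (vertical axis) with at least a given score (horizontal axis, UMIs of the 50 genes per cell thinned to 3800 UMIs), a panel for each cell class and a line for each library (i4F-Nes orange, CTR blue, replicate 2 dashed); the dotted line marks a score of 10. Radial glia keep 76.2% to 80.3% of cells at a score of 10, while neurons keep under 0.7% and reprogrammed progenitor cells 71.1% and 52.7%.

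High cells held nearly all of the list's UMIs in radial glia (96.8% to 97.4%) and most in intermediate progenitors (72.0% to 86.0%), but 3.63% to 5.12% in neurons. Cells that were not high differed less: their mean score was 5.72 to 6.15 in radial glia, 4.16 to 4.45 in intermediate progenitors and 3.30 to 3.40 in neurons. What neurons retained was of another composition. Of the list's UMIs in neurons, Ctcf gave 14.9% to 16.4%, the tubulin Tubb4b 13.5% to 16.2% and the microtubule polymerase Ckap5 12.7% to 16.5%, whereas in radial glia the chromatin protein Hmgb2 alone gave 20.1% to 22.4%. Mki67, the gene of the proliferation antigen Ki-67, had a thinned UMI in 39.0%, 32%, 46.5% and 40.7% of radial glia and in 1.22%, 0.985%, 2.28% and 1.35% of neurons. These shares were read at the same depth of 3800 UMIs per cell. Why some cells gated as neurons held a UMI of Mki67 was not tested.

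Set against radial glia within libraries, 49 of the 50 genes were lower in neurons (edgeR's quasi-likelihood test on UMI counts summed per library and class, adjusted p under 0.05), where 37.3% of 15377 genes tested were; none was higher, where 41.7% were. The median log2 fold change of the 50 was -6.00, against 0.07 for all genes. The fall was similar from role to role: the median was -6.33 for the 4 genes of cyclin B2, Cdk1 and its regulators, -6.47 for the 4 kinase and checkpoint genes, -7.05 for the 3 passenger genes, -6.60 for the 6 centromere and kinetochore genes and -6.16 for the 11 spindle genes. It was -2.05 for the 11 broadly expressed members.

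Levels are given in CPM, counts scaled to a library's total within each comparison, so that a gene's level in a class differs slightly between comparisons. Cdk1, the kinase of mitotic entry, stood at 341, 336, 316 and 314 CPM in radial glia and at 2.80, 3.26, 1.07 and 1.55 CPM in neurons (log2 fold change -7.24 ± 0.279 SE, adjusted p = 6.82e-06). Top2a, the topoisomerase that untangles sister chromosomes, went from 539, 417, 672 and 468 CPM to 3.64, 2.66, 2.85 and 2.88 CPM (-7.41 ± 0.122, adjusted p = 1.16e-11). Dlgap5, a protein of the spindle at the kinetochore, fell by 7.77 on the log2 scale, more than any other member. The classes did not come near each other in any library for these genes. Ctcf, the insulator protein that organises chromatin loops in every cell, was the gene that did not pass: 174, 158, 176 and 171 CPM in radial glia and 151, 148, 161 and 175 CPM in neurons, which overlap (-0.10 ± 0.0611, adjusted p = 0.158). The least fall among genes that passed, named for that reason, was of the ubiquitin ligase G2e3 (-0.42, adjusted p = 0.0115); the libraries of the 2 classes stood at 78.8 to 119 and 69.1 to 78.7 CPM, and the call was lost when genes of low count were kept in the fit.

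**Figure D2:**
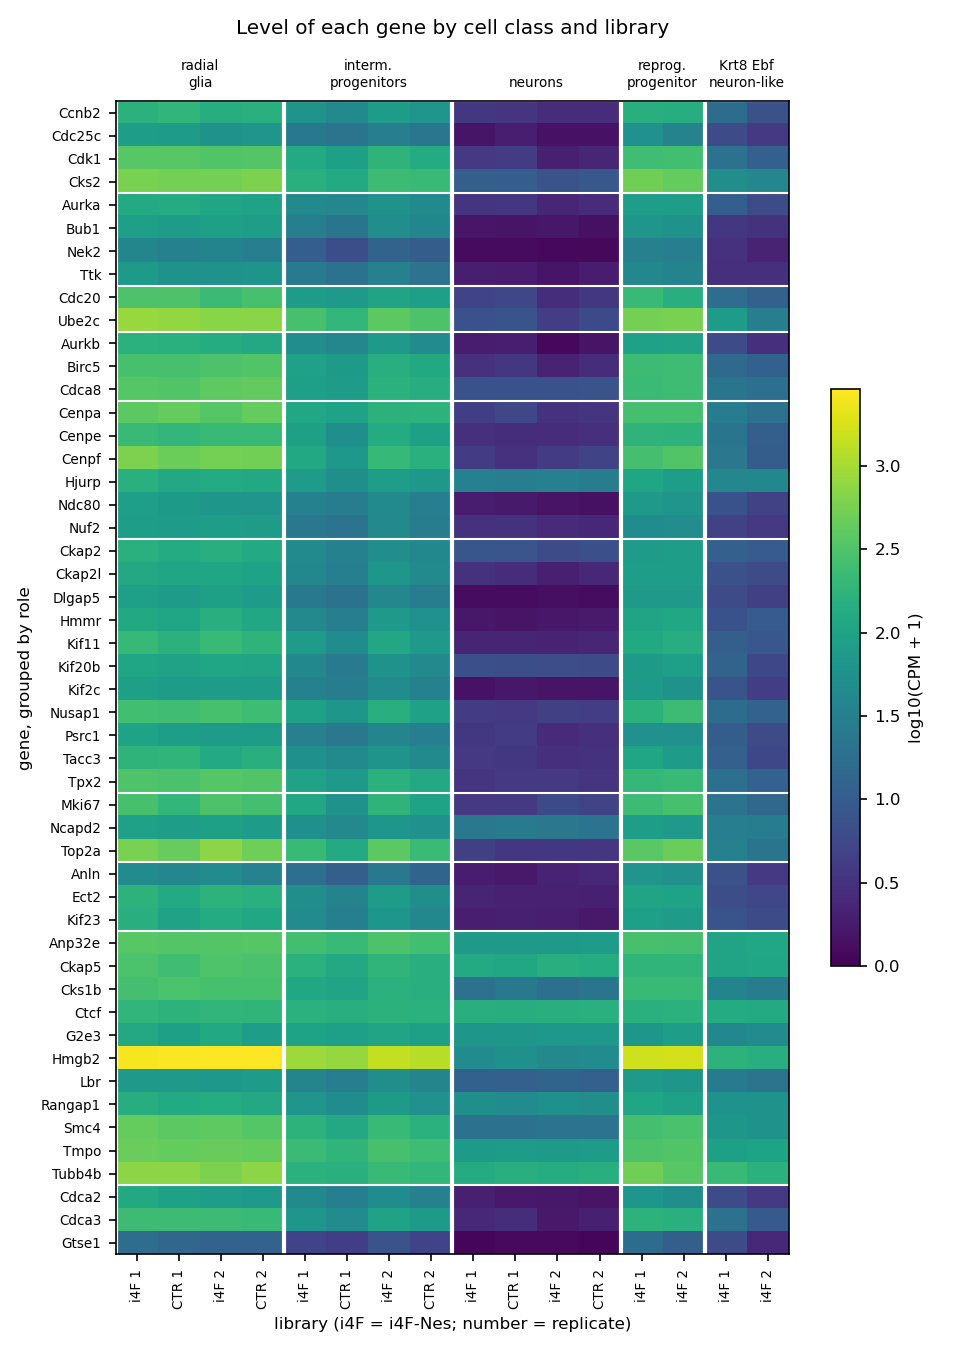
Level of each of the 50 genes (rows, grouped by role with white lines between groups) in each library of each cell class (columns), as log10(CPM + 1) by colour. Most rows are bright in radial glia and dim in neurons, with intermediate progenitors between them. Ctcf stays bright in all classes, while the test called 10 of the 11 broadly expressed members lower in neurons.

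Intermediate progenitors stood between the 2 classes. There 48 of the 50 genes were lower than in radial glia, where 33.7% of 13234 genes tested were lower and 33.9% higher, and the median log2 fold change was -1.33 (all genes, 0.00). Cenpf, a large protein of the outer kinetochore, went from 561, 467, 542 and 526 CPM in radial glia to 128, 70.0, 214 and 166 CPM in intermediate progenitors (-1.97 ± 0.266, adjusted p = 0.00298). Tubb4b fell by 1.86, the centrosomal kinase Nek2 by 1.85 and Cdc20, the activator of the anaphase-promoting complex, by 1.66. In every library each of these genes was lower in intermediate progenitors. The 2 genes that did not pass, Ctcf (-0.12, adjusted p = 0.052) and G2e3 (-0.06, adjusted p = 0.512), were the 2 that were nearest to radial glia in neurons too. Of the other mitosis genes, a list of 50 fixed by role, 49 were lower and 1 higher than in radial glia in both neurons and intermediate progenitors.

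**Figure D3:**
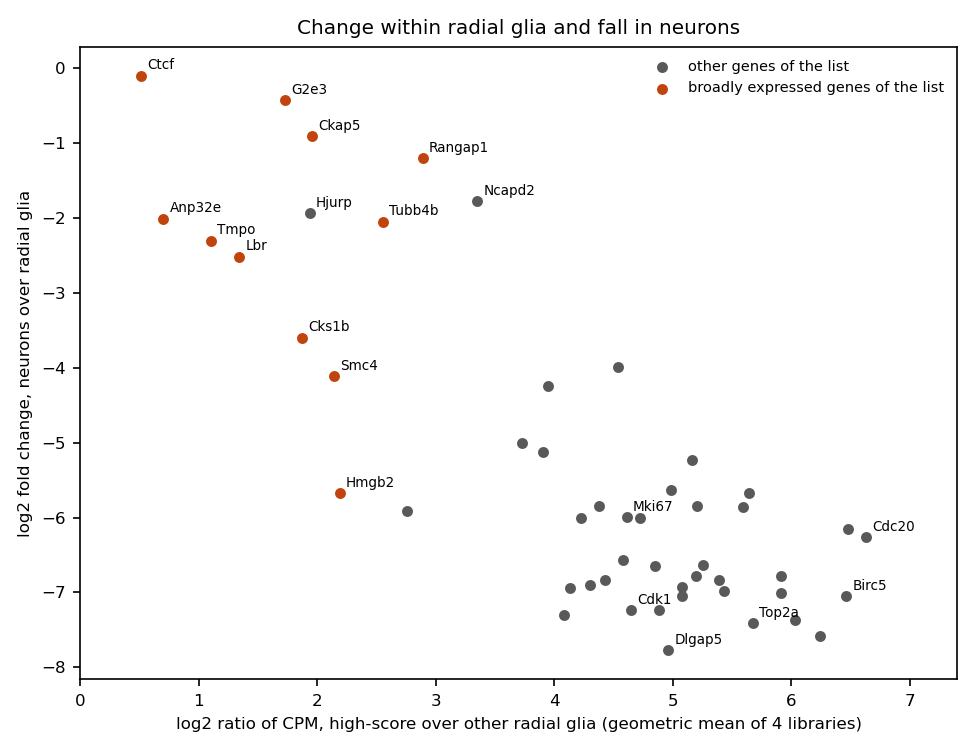
Each point is 1 of the 50 genes: the log2 ratio of its CPM in high-score over other radial glia (horizontal axis, geometric mean of 4 libraries) and its log2 fold change from radial glia to neurons (vertical axis). Broadly expressed members (orange) reach from Ctcf at the upper left, at a ratio of 1.43 and a log2 fold change of -0.10, down to a log2 fold change of -5.68. Most other members (grey) lie at the lower right.

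How sharply a gene marked the high cells within radial glia differed widely over the list. Each gene's CPM in radial glia with a score of at least 10 was divided by that in the others, with the gene itself left out of the score. Since the members share their cells, these ratios describe the list and test nothing, and genes are named for their place in the order. The ratio was lowest for Ctcf (1.43, with 1.33 to 1.61 over the libraries), for the histone chaperone Anp32e (1.62), for the lamina proteins Tmpo (2.14) and Lbr (2.53), and for G2e3 (3.32). Hmgb2, the largest contributor to the score, had 4.56 and Tubb4b 5.88. Ccnb2, a cyclin B, had 18.7, Mki67 24.4, Cdk1 25 and Top2a 51.3. Among the highest values were those of the passenger protein Birc5 (88.5), the spindle protein Nusap1 (89.4) and Cdc20 (99, with 60.9 to 202 over the libraries). The median was 24.2, and for 17 members some library had fewer than 3 counts in the low cells, so their ratios were set against 3 counts and are lower bounds, and the order at the top is not known. Genes with high ratios were also those that were lowest in neurons (Spearman correlation -0.70, Pearson correlation -0.82 over the 50 genes; a description, since genes are not replicates and the radial glia enter both measures).

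The genes outside the list with the highest such ratios were of the same kind. Of 9159 other genes with at least 10 CPM in radial glia, the 10 highest included Ccnb1 (118), Ccna2 (77.5), Pimreg (71.9), Plk1 (53.0), Prc1 (51.0), Cep55 (50.6), Kif4 (50.3), Bub1b (49.4) and Kif22 (48.1). All of these values but that of Prc1 are lower bounds, since some library had fewer than 3 counts in the low cells, and their order is not known. Of the 10, 8 were on the list of other mitosis genes. Genes of DNA replication behaved differently in radial glia: the median ratio of 43 S phase genes was 1.37, against 15.8 for the other mitosis genes. Even so, 70.3%, 73.6%, 68.8% and 59.2% of high radial glia had at least 10 UMIs of S phase genes as well. This was close to the 67.9%, 72.2%, 65.3% and 57.3% of all radial glia that did. A high score is therefore not a call of the mitotic phase.

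Over all kept cells, 48 of the 50 genes had a higher fitted level in i4F-Nes than in CTR, and 1 passed the test. Mki67 had 75.1 and 89.2 CPM in the i4F-Nes libraries and 38.5 and 37.5 CPM in the CTR libraries (log2 fold change 1.11 ± 0.127, adjusted p = 0.0242). The share of all 18556 genes tested that rose was 2.18%, and 1 of 50 is near it. Anln, the anillin of the contractile ring, stood at 15.4 and 15.6 against 7.54 and 5.51 CPM (1.25 ± 0.216, adjusted p = 0.0657), and Top2a at 133 and 167 against 85.4 and 67.3 CPM (0.97, adjusted p = 0.0766). Ctcf and G2e3 were the 2 genes with a lower fitted level (-0.07 and -0.04). The median of the 50 was 0.62 and of all genes -0.02. The groups did not overlap for 43 of the 50, all of them higher in i4F-Nes, where 41.4% of all genes did not overlap and 22.2% were higher. At the unadjusted level 29 members had p under 0.05, where 2328 of 18556 genes did.

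The makeup of the libraries also differed, and its part in these differences was not tested. The list's summed level was 3963 and 3909 CPM in i4F-Nes and 3034 and 2398 CPM in CTR. The reprogrammed progenitor cells held 13.4% and 14.46% of all UMIs of the i4F-Nes libraries and 32.3% and 35.7% of the list's UMIs. Without them and the Krt8 and Ebf cells, the summed level was 3175 and 3041 CPM in i4F-Nes against 3031 and 2398 CPM in CTR, so that the lower i4F-Nes library stood just above the higher CTR library. The median log2 fold change of the 50 was then 0.23, with 45 positive. No gene of the list passed (Mki67 0.62, adjusted p = 0.813), and 0 of all 18152 genes tested did. Radial glia, the class with the highest level, held 9.24% and 7.07% of UMIs in i4F-Nes and 10.53% and 5.57% in CTR. Over all thinned cells 15.8% and 15.1% were high in i4F-Nes and 12.7% and 8.62% in CTR, while the median score of the high cells was 40 and 43 in i4F-Nes and 41 and 47 in CTR. The number that passed also turned on the method: 20 rose with DESeq2, where 1160 of 18556 genes were called in either direction. With each library left out, the median log2 fold change of the 50 over all kept cells was 0.40 to 0.92.

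Within radial glia no member passed the test, of 13122 genes of which 8 rose (0.061%) and none fell. The median log2 fold change of the 50 was 0.11, 37 were positive, and 2 had an unadjusted p under 0.05, where 677 of 13122 genes did. The highest were G2e3 (118 and 128 against 91.9 and 86.8 CPM, 0.45 ± 0.146, adjusted p = 0.705), Top2a (566 and 722 against 451 and 515 CPM, 0.41) and Kif23, a kinesin of the central spindle (0.37). The lowest were the centromeric histone Cenpa (378 and 360 against 430 and 454 CPM, -0.26), Ccnb2 (-0.19) and Cdc20 (-0.18). The groups did not overlap for 22 genes of the list, 19 of them higher in i4F-Nes and 3 lower, where 33.1% of all genes did not overlap. Mki67 stood at 277 and 317 against 191 and 279 CPM, which overlap. The share of high cells was 78.0% ± 2.54 (SD, n = 2) in i4F-Nes and 79.8% ± 0.686 in CTR, and the exact binomial 95% intervals of the 4 libraries, which cover counting error only, reached from 72.9% to 83.9%.

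Intermediate progenitors held the more even pattern. All 50 fitted values were positive, with a median of 0.39 (all genes -0.01), but none passed the test, where 0.107% of 13120 genes rose. The highest were Mki67 (113 and 178 against 56.4 and 105 CPM, 0.86 ± 0.337), Anln (17.1 and 23.5 against 9.88 and 12.5 CPM, 0.85 ± 0.248, adjusted p = 0.608) and Top2a (214 and 389 against 126 and 237 CPM, 0.73). The lowest were Cenpa (0.03), Ctcf (0.05) and Tubb4b (0.07). Replicate 2 was higher than replicate 1 in both groups for these 3 highest and 3 lowest genes. For Mki67 and Top2a, i4F-Nes replicate 1 lay close to CTR replicate 2. The groups did not overlap for 15 genes, all higher in i4F-Nes, where 29.7% of all genes did not overlap and 16.3% were higher. Of the 50, 6 had an unadjusted p under 0.05, where 550 of 13120 genes did.

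The share of high intermediate progenitors was 19.8% (exact 95% interval 17.0% to 22.9%) and 32.3% (27.6% to 37.4%) in i4F-Nes and 16.7% (14.2% to 19.5%) and 22.0% (18.9% to 25.5%) in CTR. The group means, 26.1% ± 8.86 and 19.4% ± 3.76 (SD, n = 2), differ by less than the larger SD. The fitted difference moved in either direction with the library left out. The median of the 50 was 0.12 without i4F-Nes replicate 2, with 37 positive, and 0.13 without CTR replicate 1, with 39 positive. It was 0.64 without CTR replicate 2 and 0.62 without i4F-Nes replicate 1, with all 50 positive in both.

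The difference between the response of intermediate progenitors and that of radial glia was tested directly, as an interaction. No member passed (0.00715% of 13985 genes did), with a median of 0.32 and 49 positive values. An unadjusted p under 0.05 was found for 4 members and for 974 of 13985 genes. The lowest adjusted p was 0.610, for Mki67 (0.54 ± 0.159). The median was 0.60 without i4F-Nes replicate 1 and -0.02 without i4F-Nes replicate 2, so that it turned on the library left out. In neurons no member passed (0 of 16188 genes did), with a median of -0.07. There 0 members had an unadjusted p under 0.05, where 351 of 16188 genes did. Hmgb2 stood at 44.0 and 41.5 CPM in i4F-Nes neurons and 54.2 and 46.9 CPM in CTR neurons, and Tubb4b at 131 and 136 against 153 and 153 CPM (-0.19, adjusted p = 0.999). The groups did not overlap for 3 members that were higher and 7 that were lower in i4F-Nes, where 26.9% of all genes did not overlap.

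**Figure D4:**
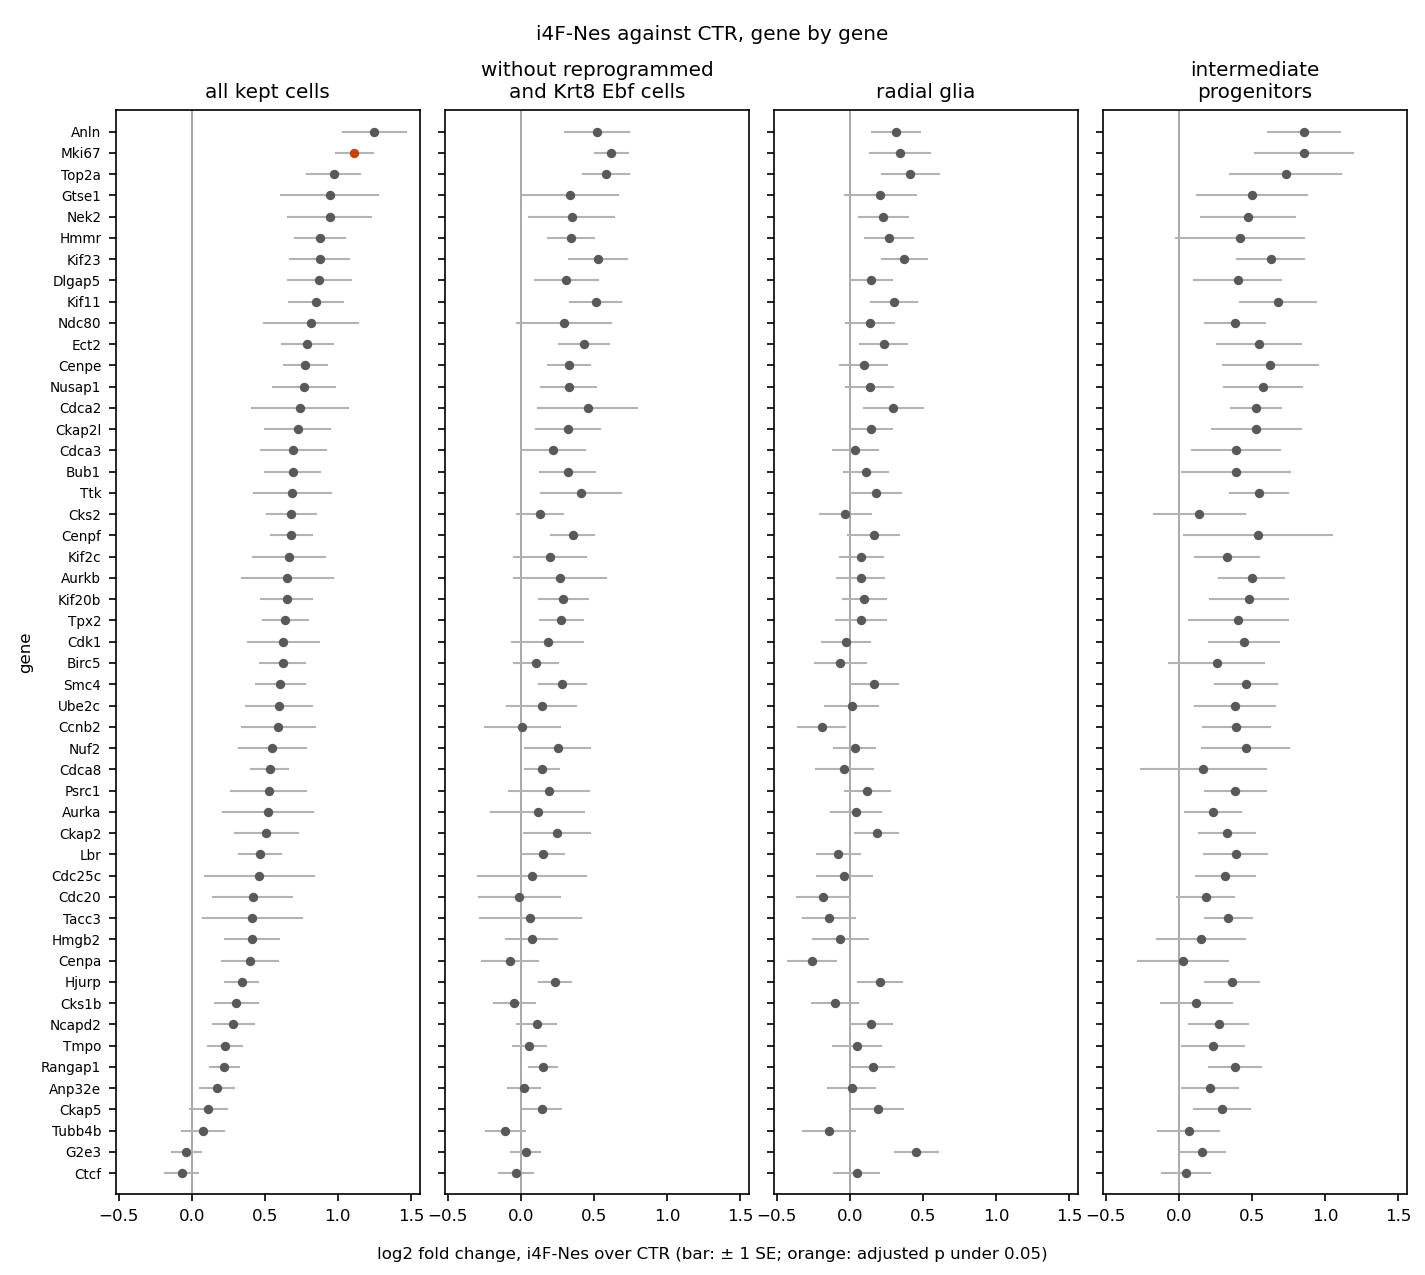
Log2 fold change of i4F-Nes over CTR (horizontal axis, bars ± 1 SE) for each of the 50 genes (rows), in all kept cells, in all cells without the reprogrammed progenitor and Krt8 Ebf cells, in radial glia and in intermediate progenitors; orange points passed the adjusted threshold. Only Mki67 in all kept cells is orange, and the medians of the 4 panels are 0.62, 0.23, 0.11 and 0.39.

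Reprogrammed progenitor cells held the list at a level below that of radial glia in the same i4F-Nes libraries but far above that of neurons: 9571 and 9644 CPM in sum, against 14098 and 13805 CPM and 920 and 923 CPM. High cells made up 71.1% (exact 95% interval 66.5% to 75.3%) of them in replicate 1 and 52.7% (47.6% to 57.7%) in replicate 2, with median scores of 21 and 11. Gene by gene, 38 of the 50 were lower than in radial glia and 1 was higher, where 21.7% and 25.2% of 14592 genes were; the median was -0.43. Both classes come from the same 2 libraries, and the 3 CTR cells caught by the gate, which had radial glia markers, were left out.

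The fall reached every role. It included Cenpf (569 and 546 CPM in radial glia, 271 and 343 CPM in reprogrammed progenitor cells, -0.87 ± 0.112, adjusted p = 0.000329), the spindle protein Ckap2 (-0.83), the checkpoint kinase Ttk (-0.75), Ckap5 (-0.69) and Hmgb2 (2470 and 2826 against 1624 and 1808 CPM, -0.62). Top2a, at 551 and 713 against 373 and 503 CPM, fell by 0.53, Cdk1 by 0.39, Aurka, the kinase of the spindle poles, by 0.47, and Bub1, a kinase of the spindle checkpoint, by 0.53. For Cenpf, Ckap2 and Hmgb2 both values of the reprogrammed progenitor cells lay below both of radial glia. By role the median ran from -0.16 for the 3 genes of chromosome structure to -0.66 for the 3 of cytokinesis.

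Within cytokinesis the members parted. Anln stood at 43.5 and 45.8 CPM in radial glia and at 62.0 and 58.1 CPM in reprogrammed progenitor cells (0.43 ± 0.108, adjusted p = 0.00851), while Kif23 (-0.66) and the cytokinesis factor Ect2 (-0.67) fell. With DESeq2, 27 members were lower and none higher, so that the call for Anln was lost. There 3481 of 14592 genes were called in either direction. Mki67 stood at 270 and 313 against 236 and 297 CPM (-0.14, adjusted p = 0.257), Ccnb2 at 154 and 142 against 146 and 150 CPM (0.00), Birc5 at 269 and 313 against 237 and 251 CPM (-0.25, adjusted p = 0.0533) and Ctcf at 178 and 187 against 156 and 170 CPM (-0.16). Of these only Birc5 and Ctcf had groups that did not overlap. The call for Ube2c, the ubiquitin-conjugating enzyme of the anaphase-promoting complex (790 and 693 against 535 and 609 CPM, -0.37, adjusted p = 0.019), was lost with DESeq2 and with a stricter gate. Of the other mitosis genes 31 were lower and 2 higher, with a median of -0.39, and of the S phase genes 11 were lower and 2 higher, with a median of -0.10. The size of the fall did not follow how sharply a gene marked high radial glia (Spearman correlation -0.13 over the 50 genes).

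Among reprogrammed progenitor cells, those with a UMI of the pluripotency gene Nanog were high in 80.0% (72.6% to 86.2%) of 145 cells in replicate 1 and 65.3% (50.4% to 78.3%) of 49 cells in replicate 2, and those without in 66.6% (60.8% to 72.0%) of 287 and 50.9% (45.5% to 56.3%) of 344. The order was the same in both libraries, but the intervals overlapped in replicate 2. Cells with and without a UMI of Cdkn1a, the inhibitor of cyclin-dependent kinases p21, differed little, at 73.7% and 70.3% in replicate 1 and, in replicate 2, 45 of 90 cells and 53.5%. UMIs of both genes were read at the thinned depth, and Nanog is one of the markers of the gate.

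Neuron-like cells with Krt8 and Ebf genes held more of the list than neurons of the same libraries, at 1635 and 1354 CPM in sum. High cells were 4.91% (2.48% to 8.62%) and 2.01% (0.655% to 4.62%), or 11 and 5 cells, and held 26.5% and 25.2% of the class's UMIs of the list. In the cells that were not high, the 39 members outside the broadly expressed ones had a mean of 0.948 and 0.545 thinned UMIs per cell, against 0.501 and 0.436 in such neurons of the same libraries. Against neurons 38 of the 50 genes were higher and 2 lower, where 21.2% and 20.7% of 15512 genes were, with a median of 2.00. These sums include the 11 and 5 high cells, whose part in the 38 calls and in the median was not tested. All 4 genes of cyclin B2, Cdk1 and its regulators rose, all 3 passenger genes, both genes of the anaphase-promoting complex and all 3 of cytokinesis. Ube2c stood at 6.73 and 3.47 CPM in neurons and at 76.6 and 28.4 CPM in these cells (3.30 ± 0.187, adjusted p = 2.97e-05). Gtse1, a G2 and S phase protein that binds microtubules, had the largest fitted rise (0.166 and 0.237 against 4.84 and 1.42 CPM, 3.93). Dlgap5 (3.55) and Cdca3 (3.52) followed. The levels of Gtse1 rest on few counts, so its place in this order is uncertain. Top2a rose by 2.96, Cdk1 by 2.95, Mki67 by 2.04 and Hmgb2 by 1.74.

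These levels remained far below those of radial glia: Top2a stood at 30.2 and 20.1 CPM and Mki67 at 18.7 and 13.0 CPM. Of the broadly expressed members 5 rose and 2 fell, G2e3 (68.5 and 72.9 against 37.9 and 43.5 CPM, -0.80) and Ckap5 (134 and 159 against 97.3 and 102 CPM, -0.55), while Ctcf stood at 150 and 159 against 126 and 124 CPM (-0.30, adjusted p = 0.0691) and Tubb4b at 139 and 146 against 200 and 154 CPM (0.31, adjusted p = 0.121). These cells also had a median of 2 of the 8 intermediate progenitor markers, against 0 in neurons, and their part in the rise was not tested. With DESeq2 34 members were higher (4463 of 15512 genes called in either direction), and with doublets kept 33 (6507 of 15883). Among the genes named, Bub1 and Nek2 were not called with DESeq2, nor Bub1 and Cenpf with doublets kept. Of the other mitosis genes 32 were higher and of 43 S phase genes, 41 of them tested, 10 were higher and 2 lower.

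**Figure D5:**
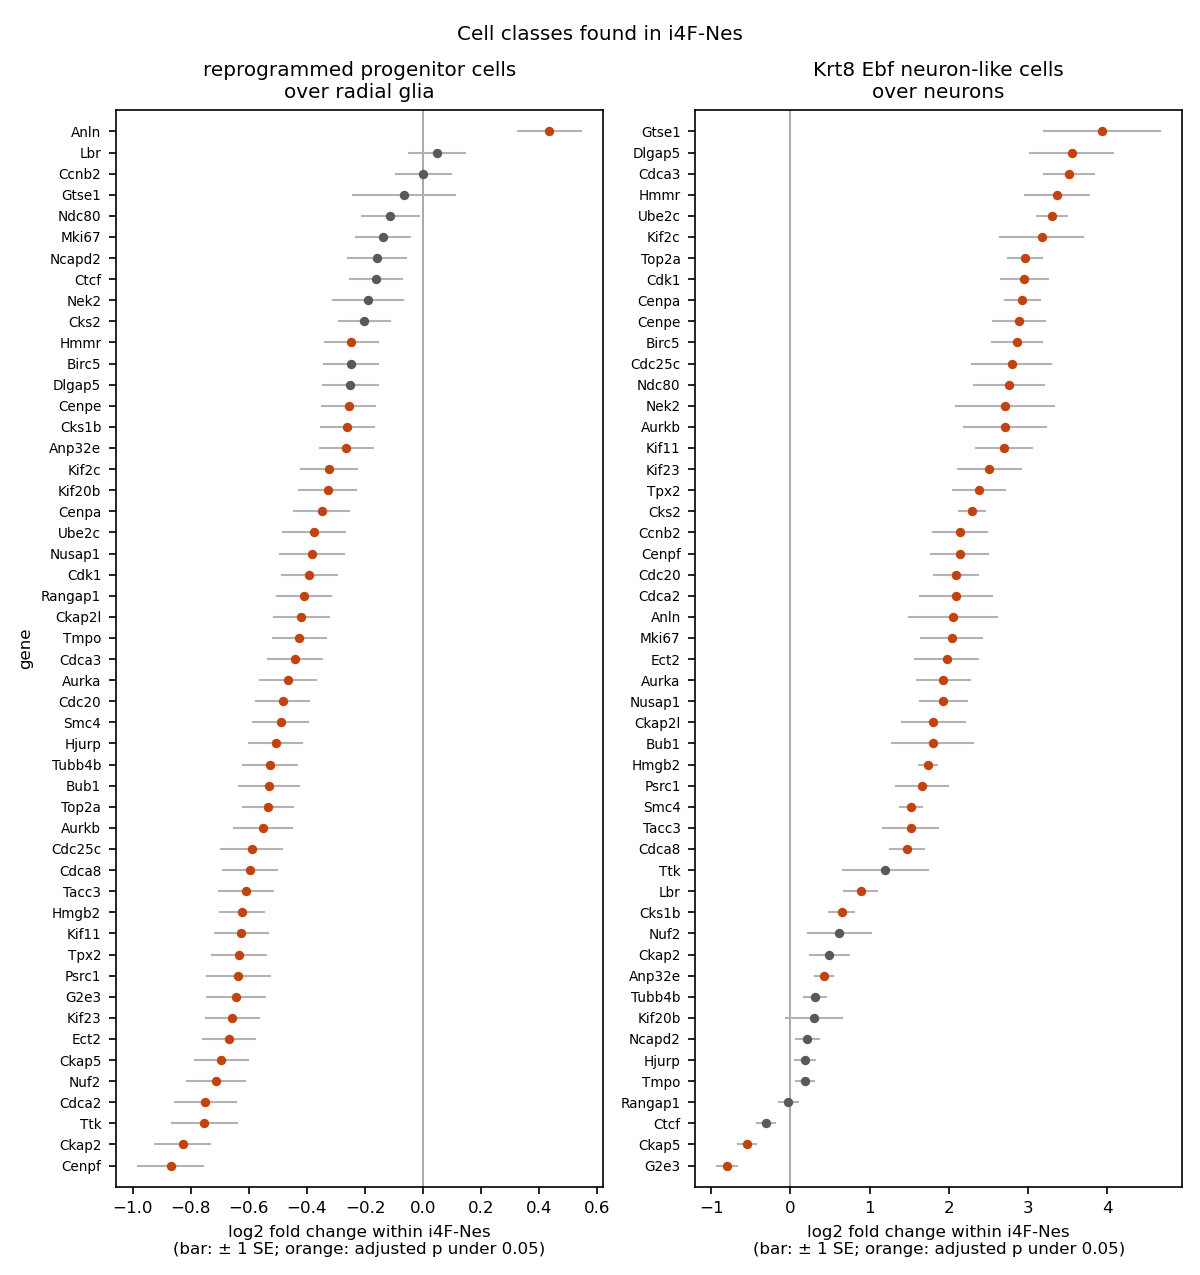
Log2 fold change (horizontal axis, bars ± 1 SE) of each of the 50 genes (rows, sorted in each panel) in the 2 cell classes found in i4F-Nes: reprogrammed progenitor cells over radial glia at the left and Krt8 Ebf neuron-like cells over neurons at the right, on different scales; orange points passed the adjusted threshold. At the left 38 genes passed below 0 and Anln above it, and at the right 38 passed above 0, with G2e3 and Ckap5 below it.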

How the data were processed

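The authors deposited raw UMI counts, a matrix of genes by barcodes for each of the 4 libraries, made with cellranger 7.0.1 per the file headers. The submitters' processing notes name mm10 as the genome build, and the cells were captured with the 10x Genomics 3′ v3.1 chemistry, per the labels. No other step is given in the sources used here.

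Kept barcodes had 1000 UMIs or more, 500 genes or more and at most 10% mitochondrial UMIs. Scrublet scores (scanpy 1.11.5) removed the highest 0.8% per 1000 barcodes, 2031 in all, which left 26641 cells. Each cell was thinned to 3800 UMIs for gates and scores. A gate asked for at least 5 radial glia, 3 intermediate progenitor, 6 neuron, 4 reprogrammed or 4 Krt8 Ebf markers, with few of the others.

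Counts of a class were summed per library and tested with edgeR 4.0.16 (TMM, filterByExpr, glmQLFit and glmQLFTest) over all genes that passed the filter, with Benjamini-Hochberg adjustment at 0.05. All 50 members passed the filter in each of the 9 comparisons. Contrasts of classes had the library as a block. Log2 fold changes are given with 1 SE. In the 2 against 2 comparisons no exact permutation of labels was made, and shares of high cells have no test.

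Named genes were 13 fixed representatives, then members past the threshold, at most 15 in each direction by size, or, where none passed, the 3 highest and 3 lowest of at least 10 CPM. The members, the marker and gene lists and this rule were chosen with earlier results of these data known. Of the 10 genes outside the list most like it, 1 is not reported here. Alternatives were DESeq2 1.42.0, no filter on low counts, a replicate block, doublets kept, a stricter gate, other score limits and each library left out.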

Additional observations from a re-analysis of the deposited data

How the results depend on the processing

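The count of members that rose over all kept cells, 1, was 20 with DESeq2, 5 with doublets kept, 7 with no filter on low counts, 10 with a replicate block, 0 without the reprogrammed progenitor and Krt8 Ebf cells, and 1 to 26 with each library left out. In intermediate progenitors, where it was 0, it was 3 with no filter, 14 with the replicate block and 0 to 9 with each library left out, and for the interaction 1 with no filter and 0 to 34. With the replicate block 1 member rose in radial glia, where 288 of 13122 genes were called in either direction. In neurons 3 fell with that block, where 1307 of 16188 genes were called. Deviations of same-numbered libraries correlated at 0.33 over 18556 genes, but the labels give no pairing and there are 2 pairs. In reprogrammed progenitor cells 0 members rose with DESeq2. The counts of members lower than in radial glia stayed at 48 in intermediate progenitors under the alternatives run and were 48 to 50 in neurons; in reprogrammed progenitor cells they were 27 to 38. With a single library left in the i4F-Nes classes there is a value and no test.

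The sign turned for the median in neurons (0.17 with doublets kept, 0.056 with a stricter gate), and without the reprogrammed progenitor and Krt8 Ebf cells for Cdc20 (-0.012) and Tubb4b (-0.11) over all cells. With each library left out it turned for the median of the interaction (-0.018 to 0.60), over all cells for Tubb4b (-0.024 to 0.19) and Ctcf (-0.14 to 0.023), in intermediate progenitors against CTR for Tubb4b (-0.19 to 0.29), Ctcf (-0.051 to 0.16) and Cenpa (-0.33 to 0.50), for G2e3 in intermediate progenitors against radial glia (-0.12 to 0.018) and for Ccnb2 in reprogrammed progenitor cells (-0.092 to 0.079, and -0.0090 with DESeq2). None of these had passed the test. The causes were not tested. Of the values of the genes named by rule under an alternative, 904 kept their direction and call, 36 passed the threshold newly, 9 lost it, 31 with no test moved by more than 1 SE, and 13 reversed. Members higher in Krt8 Ebf cells than in neurons were 33 to 38 under the alternatives with a test.

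The share of high cells moved with its limit. In radial glia it was 56.9% in i4F-Nes and 60.9% in CTR at a minimum of 20, 93.9% and 94.3% at 5, 53.5% and 57.2% without the broadly expressed members, and 78.5% in CTR with doublets kept. In intermediate progenitors it was 57.8% and 53.6% at 5, and in CTR 14.9% at 20 and 14.2% without those members. In neurons it was 0.0812% and 0.162% at 20, 26.3% and 25.8% at 5, 0.947% and 0.817% with doublets kept, 0.566% and 0.480% with a stricter gate, 0.304% and 0.301% at 6000 UMIs and 0.0692% and 0.187% without those members. Reprogrammed progenitor cells had 45.3% at 20, 84.6% at 5 and 45.0% without those members, and Krt8 Ebf cells 38.9% at 5 and 5.83% with doublets kept. Left-out libraries gave the values of the single libraries: 76.2% to 79.8% and 79.3% to 80.3% in radial glia, 19.8% to 32.3% and 16.7% to 22.0% in intermediate progenitors, 0.596% to 0.669% and 0.627% to 0.674% in neurons, 52.7% to 71.1% in reprogrammed progenitor cells and 2.01% to 4.91% in Krt8 Ebf cells.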
